A study of Mus musculus with 8 samples.

Results

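The promoter peaks of noncoding genes and pseudogenes are the accessible regions that the authors' peak table annotates to a promoter and whose gene is of a type other than protein-coding. Restricted to chromosomes 1 to 19, they numbered 751 of the 67822 listed peaks and belonged to 646 genes. By the table's gene types, 707 of the peaks were of ncRNA genes, 34 of pseudogenes, 8 of snoRNA genes and 2 of snRNA genes. A further 12116 promoter peaks on the same chromosomes were of protein-coding genes. The rule used the annotation alone and no measured value. The listed peaks were themselves called from these libraries, and the rule was set with earlier results of these data known. The assay was ATAC-seq, where a transposase inserts adapters into open chromatin, on CD11b+ cells taken from the forebrain as microglia. The 8 libraries were 4 of Nlrp3 knockout mice (Nlrp3-/-, a Cias1 knockout line from Millennium Pharmaceuticals) and 4 of wild-type mice of C57BL/6N background. The labels do not give the background strain of the knockout, or the age, sex or number of animals, so p-values measure the spread between these libraries, which may in part be technical. NLRP3 is the sensor of an inflammasome, and the comparison asks what its loss does to open chromatin in microglia.

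Noncoding genes give RNAs that are not translated. Long noncoding RNAs can scaffold nuclear bodies, host small nucleolar RNAs in their introns or act on neighbouring genes, and many start close to a coding gene and run away from it, out of a shared nucleosome-free region. MicroRNAs are cut as hairpins from longer primary transcripts, so the start that the peak table uses for a microRNA gene is the end of its hairpin and not the start of transcription. Pseudogenes are copies of genes that have lost their coding function, and short tags can be split between such near-identical copies, so their values are uncertain.

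The sequences of 6 noncoding promoters are given because the results describe them: 4932412D23Rik and Mir22hg are among the most open members, Gas5 and Snhg5 are snoRNA host genes, and Gm14005 and Ptgs2os2 are genes known in myeloid cells. Each is the RefSeq window from 250 bases before to 50 bases after the annotated start (GRCm38.p6), read 5′ to 3′ on the gene's strand, and each overlaps its peak. Capitals mark the searched motifs on either strand. The windows lie at chr1:161034916-161035215 (Gas5, plus strand), chr9:88522848-88523147 (Snhg5, minus), chr11:75461289-75461588 (Mir22hg, plus), chr16:42875538-42875837 (4932412D23Rik, minus), chr2:128429302-128429601 (Gm14005, minus) and chr1:150164899-150165198 (Ptgs2os2, minus).
Gas5: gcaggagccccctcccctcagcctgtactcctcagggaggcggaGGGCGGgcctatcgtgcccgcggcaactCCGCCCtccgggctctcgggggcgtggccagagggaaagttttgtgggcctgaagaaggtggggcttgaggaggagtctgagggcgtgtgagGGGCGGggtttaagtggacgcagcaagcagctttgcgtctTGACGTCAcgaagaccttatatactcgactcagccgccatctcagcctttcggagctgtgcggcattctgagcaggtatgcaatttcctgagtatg
Snhg5: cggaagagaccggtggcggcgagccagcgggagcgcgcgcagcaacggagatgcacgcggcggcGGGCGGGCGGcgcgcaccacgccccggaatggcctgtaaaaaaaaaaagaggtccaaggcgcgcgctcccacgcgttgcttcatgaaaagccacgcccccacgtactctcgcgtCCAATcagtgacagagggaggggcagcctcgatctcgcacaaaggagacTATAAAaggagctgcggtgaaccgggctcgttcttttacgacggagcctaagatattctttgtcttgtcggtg
Mir22hg: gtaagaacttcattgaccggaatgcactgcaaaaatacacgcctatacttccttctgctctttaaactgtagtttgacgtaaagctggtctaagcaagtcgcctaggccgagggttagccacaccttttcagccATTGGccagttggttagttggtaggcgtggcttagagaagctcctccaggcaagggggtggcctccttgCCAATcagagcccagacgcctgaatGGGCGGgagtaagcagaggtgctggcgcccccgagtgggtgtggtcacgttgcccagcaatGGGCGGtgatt
4932412D23Rik: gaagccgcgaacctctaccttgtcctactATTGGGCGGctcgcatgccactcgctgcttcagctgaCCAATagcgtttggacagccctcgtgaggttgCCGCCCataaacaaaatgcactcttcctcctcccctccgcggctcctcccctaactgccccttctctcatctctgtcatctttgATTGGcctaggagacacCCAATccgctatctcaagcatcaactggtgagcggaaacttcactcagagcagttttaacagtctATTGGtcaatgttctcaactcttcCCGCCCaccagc
Gm14005: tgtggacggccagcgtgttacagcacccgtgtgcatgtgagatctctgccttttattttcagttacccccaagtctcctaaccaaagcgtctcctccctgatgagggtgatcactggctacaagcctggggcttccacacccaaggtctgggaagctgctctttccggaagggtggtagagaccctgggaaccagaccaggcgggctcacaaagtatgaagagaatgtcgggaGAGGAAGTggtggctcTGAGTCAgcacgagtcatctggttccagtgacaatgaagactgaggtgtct
Ptgs2os2: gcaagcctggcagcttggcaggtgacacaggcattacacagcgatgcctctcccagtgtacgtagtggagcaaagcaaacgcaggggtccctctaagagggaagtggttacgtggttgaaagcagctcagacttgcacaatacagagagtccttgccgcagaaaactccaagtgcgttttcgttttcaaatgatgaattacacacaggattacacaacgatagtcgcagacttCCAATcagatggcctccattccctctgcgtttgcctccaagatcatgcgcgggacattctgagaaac

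The 11 motifs searched, on both strands, began with 3 boxes common in promoters. The TATA box was searched as TATAAA, the CCAAT box by the letters of its name, and the box of SP and KLF factors, called the GC box, as GGGCGG. The cyclic AMP response element, or CRE, was searched as TGACGTCA and the site of the respiratory factor NRF1 as GCGCATGC. For ZNF143 the letters were ACTACAATT, and for YY1 they were AAGATGGCG. For PU.1, which myeloid cells depend on, the letters were GAGGAAGT, and for other ETS factors CCGGAAGT. The E-box was searched as CACGTG and the AP-1 site as TGAGTCA. PU.1 is itself an ETS factor, and those motifs share their last 6 letters. The Gas5 window held a CRE and GC boxes, and the Snhg5 window a TATA box, a CCAAT box and GC boxes. The windows of Mir22hg and 4932412D23Rik held CCAAT and GC boxes, that of Gm14005 the PU.1 and AP-1 letters, and that of Ptgs2os2 a CCAAT box. A match is a description of the letters and not evidence of binding.

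The mature microRNAs at the member peaks with the smallest p, and those of the myeloid genes Mir142 and Mir146, are given with the seed (bases 2 to 8) in capitals, from RefSeq (GRCm38.p6). The first 8 come from 4 hairpins at chr8:84208518-84208921, where Mir3074-2 is read from the strand opposite to Mir24-2.
mmu-miR-23a-5p: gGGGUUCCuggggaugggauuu
mmu-miR-23a-3p: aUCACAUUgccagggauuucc
mmu-miR-27a-5p: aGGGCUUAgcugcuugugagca
mmu-miR-27a-3p: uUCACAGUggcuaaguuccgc
mmu-miR-24-2-5p: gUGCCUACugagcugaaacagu
mmu-miR-24-3p: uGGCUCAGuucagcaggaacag
mmu-miR-3074-2-3p: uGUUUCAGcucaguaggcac
mmu-miR-3074-5p: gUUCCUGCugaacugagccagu
mmu-miR-142a-5p: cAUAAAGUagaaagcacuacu
mmu-miR-142a-3p: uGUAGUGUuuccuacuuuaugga
mmu-miR-146a-3p: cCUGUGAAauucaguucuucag
mmu-miR-146a-5p: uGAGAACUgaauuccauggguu
All 12 seeds differ.

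The libraries held 11325865 to 14301529 tags in knockout and 11872703 to 15521580 in wild-type libraries. Of these, 6.68%, 4.96%, 20.9% and 26.2% lay in listed peaks in knockout replicates 1 to 4, and 17.5%, 9.79%, 12.8% and 14.4% in wild-type replicates 1 to 4. The median tested noncoding promoter peak therefore held 13, 11, 35 and 51 tags in the knockout libraries, against 29, 23, 31 and 35 in the wild-type libraries. The promoter peaks of Nlrp3 itself held 0 or 1 tag in every knockout library, against 54 to 80 in every wild-type library. Of 12 microglia marker genes 11 had a promoter peak, with summed CPM over all their peaks of 2501 to 2903 in knockout and 2377 to 2609 in wild-type libraries. Markers of granulocytes and lymphocytes had no promoter peak, and their summed CPM was 1.76 to 8.86 in knockout and 4.22 to 6.83 in wild-type libraries. Border macrophages and monocytes, which also carry CD11b, had promoter peaks at 2 of 6 marker genes and 160.3 to 376 CPM in knockout against 196 to 322 in wild-type libraries. Promoter peaks were also present at 1 of 7 neuron, 1 of 5 astrocyte, 3 of 7 oligodendrocyte lineage and 3 of 5 endothelial and mural markers, and no peak lay at Gad1, Gad2, Sox10, Olig2 or Rgs5. In such bulk samples, fewer cells of a type and less signal per cell cannot be told apart.

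Noncoding promoter peaks were narrow and lay close to starts. Their median width was 275 bp (201 to 849 bp), and 381 (50.7%) had their centre within 100 bp of the annotated start, against 57.9% of protein-coding promoter peaks. The centre lay upstream of the start in 535 of the 751 (71.2%). Of the 646 genes, 545 had 1 such peak, 98 had 2 and 3 had more, among them A330009N23Rik with 4 and Mirlet7i, a let-7 microRNA gene, with 3. Of the 751 peaks, 591 (78.7%) came from both of the authors' peak lists. Another 53 (7.06%) stood in the knockout list alone and 107 (14.2%) in the wild-type list alone. The share from both lists was 86.7% for protein-coding promoters and 75.5% for all listed peaks.

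The gene type and the nearest transcript did not always go together. Although the gene was of a noncoding type, the table annotated 175 of the peaks (23.3%) to a coding transcript, and 576 to a noncoding one. The RefSeq gene table held the gene of 749 of the peaks and gave long noncoding RNA for 598 peaks, microRNA for 96 and transcribed pseudogene for 33. It gave protein-coding for 7 peaks, those of BC029722, Btbd19, 0610012G03Rik, 1810058I24Rik, Mfsd4b4, 1500011K16Rik and Gm10033.

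Accessibility is given as CPM per kb of peak width, where CPM, counts scaled to a fixed library total, is taken over the tags in tested peaks after TMM scaling. Noncoding promoter peaks had a median level of 46.4 (quartiles 27.1 and 87.5, range 11.8 to 459.1), against 55.9 for protein-coding promoter peaks and 35.0 for all listed peaks. The median noncoding level was 46.1, 46.1, 43.9 and 48.1 in knockout replicates 1 to 4, against 43.1, 45.1, 49.5 and 47.7 in wild-type replicates 1 to 4. The genotypes overlapped. Set over the protein-coding median of the same library, it was 0.848 ± 0.042 in knockout and 0.803 ± 0.032 in wild-type libraries (SD, n = 4 each), and below 1 in all 8 libraries. Noncoding promoter peaks held 1.45%, 1.40%, 1.43% and 1.51% of all tags in peaks in the knockout libraries, against 1.40%, 1.50%, 1.59% and 1.55% in the wild-type libraries. Here too the genotypes overlapped, and the knockout mean minus the wild-type mean was -0.061 percentage points, or 0.011 with all tags of a library as the denominator. The plot of medians by library shows the same values.

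**Figure D1:**
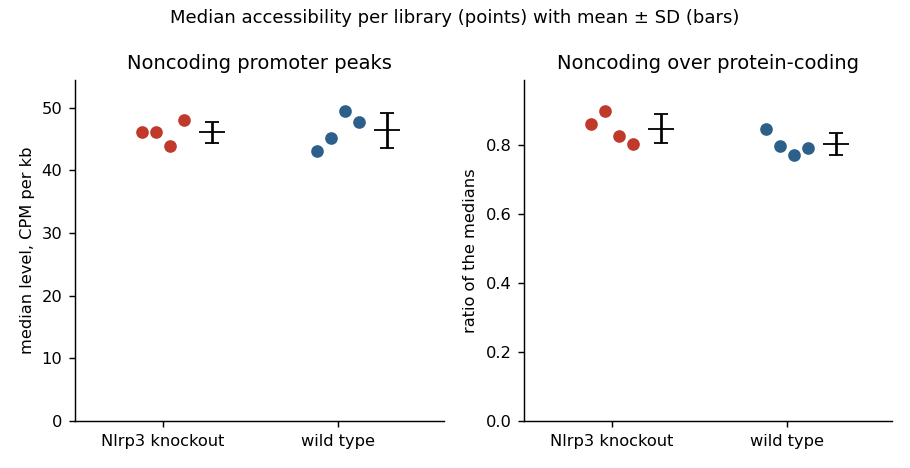
Median accessibility of the 751 noncoding promoter peaks in CPM per kb (left) and its ratio to the median of protein-coding promoter peaks in the same library (right). Points are libraries, bars the mean ± SD of 4 libraries, and both axes start at 0. The ratio lies between 0.772 and 0.900 in all libraries.

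The level followed the distance from the start. Noncoding peaks within 100 bp of the start had a median of 52.2 CPM per kb, those between 100 and 500 bp away 42.0 and those farther out 35.9. At protein-coding promoters the medians were 59.1, 61.4 and 34.5 over the same bins, so noncoding peaks stood lower within 500 bp and at a like level beyond it.

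A coding gene often started next door. For 504 of the peaks the noncoding gene's own start was found in the RefSeq promoter table. In 165 of these (32.7%, with each peak of a gene counted) a protein-coding gene started within 1000 bp upstream on the opposite strand. This arrangement is called divergent. These peaks belonged to 135 noncoding genes, with a median of 166 bp between the starts, and in 132 the starts were at most 300 bp apart. In 53 peaks a coding start on the opposite strand lay downstream, so that the genes overlap, and in 285 no coding start lay within 1000 bp. Divergent peaks had a median level of 61.0 CPM per kb, overlapping ones 42.3 and those with no coding start 42.2. The divergent median was the highest of these 3 in each of the 8 libraries, at 57.6 to 64.0 in knockout and 58.4 to 71.1 in wild-type libraries. Peaks with no coding start nearby had medians of 42.2 to 43.9 in knockout and 40.7 to 45.8 in wild-type libraries. ATAC-seq tags carry no strand, so a divergent peak cannot be assigned to either gene. The table annotated 105 of the 165 to a coding transcript, and for 84 the coding partner had no promoter peak of its own in the list.

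**Figure D2:**
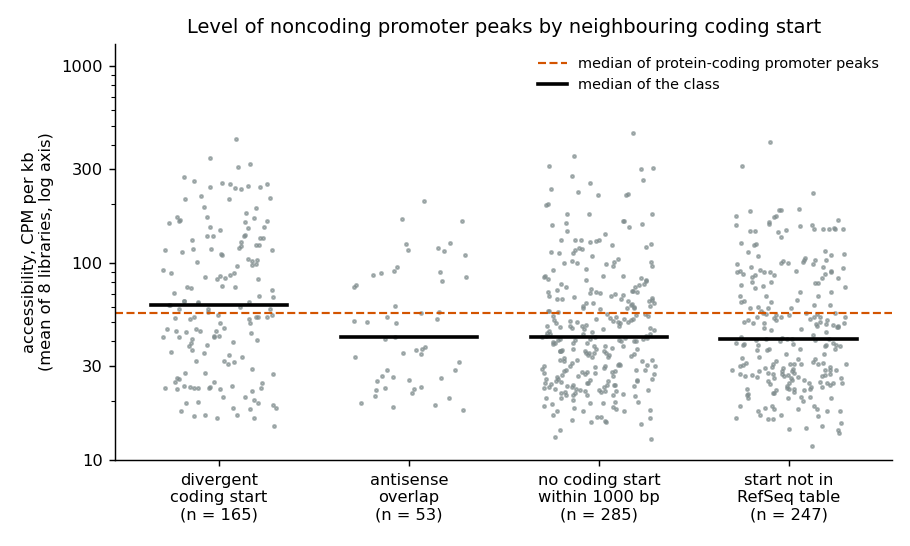
Accessibility of each noncoding promoter peak in CPM per kb, as the mean of 8 libraries on a log axis, by the nearest protein-coding start. Points are peaks, black lines class medians and the dashed line the median of protein-coding promoter peaks (55.9). The divergent class alone has its median above that line, and 1 peak with a coding start on the same strand is not drawn.

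The base composition of the members' windows depended on the neighbouring coding start. The 432 distinct windows had a median GC content of 60.7% and a median CpG observed over expected of 0.735, against 62% and 0.788 for 8356 windows of protein-coding promoter peaks. All 11588 long noncoding RNA windows of the table had 48.3% and 0.245. Divergent members (137 windows) had a GC content of 67.3% and a CpG ratio of 0.882, against 55.3% and 0.496 for the 252 windows with no coding start nearby. The GC box stood in 58.3% of the members' windows, in 68.7% of coding ones, in 16.3% of all long noncoding RNA windows and in 35.7% of all 32851 windows of the table. The TATA box stood in 4.86% of members' windows, 6.32% of coding ones and 13.6% of all windows. The AP-1 letters stood in 9.52% of members with no coding start nearby and 0.730% of divergent members, with 3.12% in coding windows and 5.20% in all windows. The ETS letters stood in 12.4% of divergent members and 3.97% of those with no coding start nearby, with 8.94% in coding windows and 3.89% in all windows. PU.1 letters stood in 4.63% of members, 3.57% of coding windows and 3.20% of all windows, and CCAAT in 39.8%, 39.1% and 37.4%. In members, CRE stood in 3.70%, NRF1 in 4.17%, YY1 in 1.85% and the E-box in 11.8%, and ZNF143 in none. In coding windows, CRE stood in 3.61%, NRF1 in 5.72%, YY1 in 3.27%, the E-box in 10.5% and ZNF143 in 0.802%. In all windows, CRE stood in 1.79%, NRF1 in 2.71%, YY1 in 1.40%, the E-box in 7.15% and ZNF143 in 0.393%.

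Levels were higher where the window held more CpG. Over the 504 matched peaks, Spearman's rho between the CpG ratio of the window and the level was 0.18, where peaks of the same gene share a window and all share the libraries. Split by the CpG ratio into groups of 168, the peaks with the lowest ratios had a median level of 35.8 CPM per kb, the middle ones 50.1 and the highest ones 56.9. Peaks whose window held a GC box had a median of 54.3 (295 peaks), against 39.6 for the 209 without it. Peaks with the AP-1 letters had a median of 39.3 (28 peaks), against 47.8 for those without. Of the 27 members' windows with these letters, 24 had no coding start nearby. Medians were higher with than without the letters of YY1 (62.8, 11 peaks), ETS (61.0, 35), PU.1 (54.3, 23), the E-box (53.3, 62) and CCAAT (52.5, 207). They were lower with CRE (43.5, 19 peaks), the TATA box (43.8, 28) and NRF1 (45.1, 19).

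The most open member was the promoter of 4932412D23Rik (16:42875425-42875700), a gene of no annotated function whose window is printed above. It had 485 ± 31.9 CPM per kb in knockout and 433 ± 28.1 in wild-type libraries (SD, n = 4 each). Next came Gm15545 (7:44986634-44986880), divergent from the arginine methyltransferase gene Prmt1, with 429 ± 22.1 CPM per kb in knockout and 424 ± 45.0 in wild-type libraries. The pseudogene H2-K2 (17:33978786-33979095), a copy among the class I histocompatibility genes whose tags may come from its relatives, had 435 ± 61.1 in knockout and 393 ± 44.7 in wild-type libraries. These 3 overlapped in level within their spread. The others of the 10 most open members lay between 305.5 and 352 CPM per kb. They were 4632427E13Rik, Gm20753 (divergent from the phosphatase gene Phlpp1), 2700012I20Rik (divergent from the corepressor gene Sin3a), Rmrp, 1700096K18Rik, Gm7008 (divergent from Ifrd1) and Mir22hg. Rmrp makes the RNA of RNase MRP, an enzyme of ribosomal RNA processing, and Mir22hg is the host of miR-22. Their log2 fold changes, knockout over wild type, ran from -0.22 at Gm20753 to 0.15 at 4932412D23Rik, and none passed the test described below.

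Classes of genes differed in level. The 95 peaks of 85 microRNA genes had a median of 37.8 CPM per kb, the 47 peaks of genes with an opposite-strand symbol 39.2 and the 16 of genes with a pseudogene symbol 69.9. That last class goes by the spelling of the symbol, and the 34 peaks of pseudogene type had a median of 44.0. Peaks of genes known by a Rik symbol had 46.2 (351 peaks), those with a Gm or LOC symbol 41.6 (155), and the other named genes, such as Gas5 and Malat1, 77.7 (76). Peaks of snoRNA and scaRNA genes, which guide RNA modification, had 34.5 (11 peaks). Of 83 microRNA peaks whose hairpin is in the RefSeq table, 25 held the hairpin whole, and the median gap between peak and hairpin was 59 bp.

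No noncoding promoter peak passed the test between knockout and wild-type libraries. With edgeR's quasi-likelihood test, 0 of the 689 peaks with enough tags to be tested had an adjusted p under 0.05, where 0.170% of all 58135 tested peaks did, and the smallest adjusted p was 0.101. DESeq2 also gave 0. At an unadjusted p under 0.05 edgeR found 28 (4.06%, against 4.83% of all tested peaks) and DESeq2 17 of 751. This number was not stable. It was 1 of 689 with scaling by all tags, 53 of 698 without wild-type replicate 1 and 51 of 700 without knockout replicate 4. Calls over all peaks moved too, with 19, 83 and 123 at an adjusted p under 0.05 in these settings, against 99. Of the 28, 9 were higher in the knockout (1.31%, against 2.61% of all tested peaks) and 19 lower (2.76%, against 2.22%). All 4 knockout libraries lay above all wild-type libraries at 8 members (1.16%, against 1.68% of all tested peaks) and below them at 9 (1.31%, against 1.49%).

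The fold changes were small. The median log2 fold change of the tested members was -0.046, with 0.0037 over all tested peaks and -0.066 over protein-coding promoters. Scaling by all tags of a library gave the members a median of 0.063, so the sign of medians this near 0 depends on the scaling. Values ran from -1.16 to 1.24, and 647 of the 689 lay within 0.5 of 0. The 95% interval reached a median of 0.49 to either side of the value, and it lay wholly between -1 and 1 for 593 peaks (86.1%). The spread between libraries was wide: the median coefficient of variation of a tested member was 23.9% over the knockout and 19.4% over the wild-type libraries. The plot of fold change against level shows a wider scatter at low levels.

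**Figure D3:**
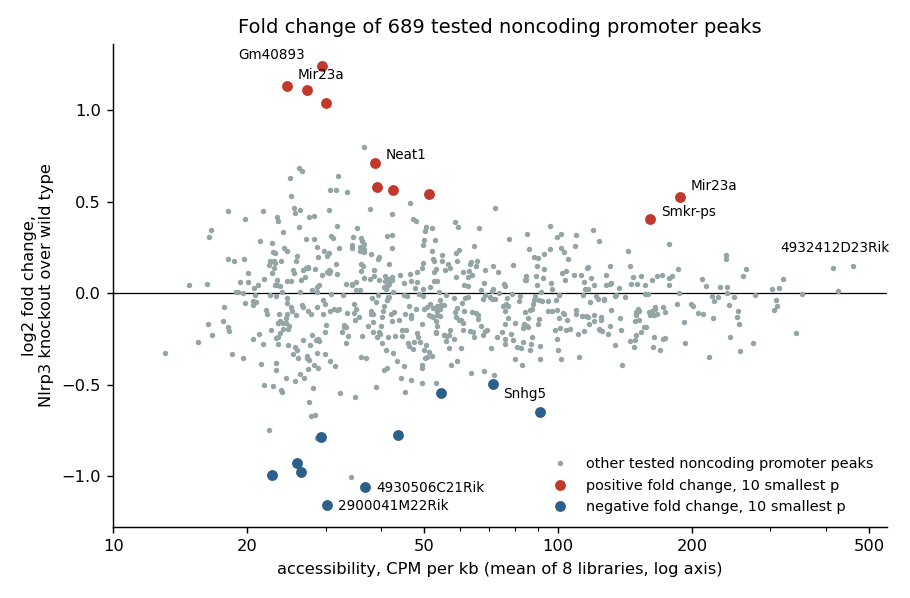
Log2 fold change (Nlrp3 knockout over wild type) of the 689 tested noncoding promoter peaks against their mean level in CPM per kb on a log axis. Coloured points are the 10 peaks with the smallest p in each direction, none of which has an adjusted p under 0.05. They run from -1.16 to 1.24.

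The smallest p among members was at Mir23a, the first microRNA of the miR-23a, miR-27a and miR-24-2 cluster, which in mice is known in blood cell development. The peak at 8:84208257-84208913 covers the hairpins of Mir23a, Mir27a and Mir3074-2 whole and most of Mir24-2, whose mature sequences are printed above. It held 26.5, 28.05, 22.8 and 14.2 CPM in knockout replicates 1 to 4, against 12.4, 6.32, 7.40 and 11.2 CPM in wild-type replicates 1 to 4. All knockout libraries lay above all wild-type libraries. The log2 fold change was 1.13 (SE 0.26, 95% interval 0.59 to 1.68), and it did not pass in edgeR (adjusted p = 0.101). The authors' table lists this peak from the knockout list only, so its listing already rested on the knockout libraries.

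Its neighbours leaned the same way. The other Mir23a peak, upstream of the hairpins at 8:84207809-84208085, had 73.6, 47.2, 67.2 and 57.3 CPM in the knockout, against 49.2, 39.4, 40.4 and 41.9 CPM in wild-type libraries. Here knockout replicate 2 lay below wild-type replicate 1 (log2 0.52, SE 0.15, edgeR adjusted p = 0.450). The Mir3074-2 peak on the far side, at 8:84208959-84209630, had 48.3, 34.0, 32.9 and 15.9 CPM in the knockout, against 24.4, 21.1, 17.6 and 16.8 CPM in wild-type libraries. Knockout replicate 4 was the lowest of all 8 there (log2 0.58, SE 0.25, edgeR adjusted p = 0.982). Outside the promoter class, the exon peak assigned to Mir3074-2 at 8:84213611-84214441, in an exon of a coding transcript on that side, passed the test. It had 45.9, 35.4, 29.0 and 19.7 CPM in the knockout, against 14.4, 12.6, 8.54 and 10.7 CPM in wild-type libraries (log2 1.36, SE 0.25, edgeR adjusted p = 0.0101). Of the 29 tested peaks within 15 kb of the Mir23a peaks, 27 had a positive log2 fold change, and 1, the exon peak, passed. Over all 58135 tested peaks, 29378 had a positive log2 fold change and 0.170% passed. Neighbouring peaks were measured in the same libraries and are not independent of each other.

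The share of tags in peaks differed between these libraries, and at the hairpin peak its order went with the CPM in opposite ways in the genotypes. In the exon peak, knockout CPM was highest in replicates 1 and 2, which had the lowest shares of tags in peaks (6.68% and 4.96%), and lowest in replicate 4 (26.2%). Knockout replicate 4 was also the lowest knockout library at the hairpin peak, while at the upstream Mir23a peak replicate 2 was the lowest. In wild-type libraries the hairpin peak had the reverse order, with the highest CPM in replicate 1 (17.5% of tags in peaks) and the lowest in replicate 2 (9.79%), and the exon peak was also highest in replicate 1. The part of this share in the result was not tested. Without knockout replicates 1 and 2, the log2 fold change of the Mir23a hairpin peak was 0.92 (edgeR adjusted p = 0.231). Without knockout replicate 4 it was 1.38 and passed in edgeR (adjusted p = 0.00958). It also passed in edgeR with robust moderation (adjusted p = 0.0344), and over all alternatives that kept it the adjusted p ran from 0.00958 to 1.

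**Figure D4:**
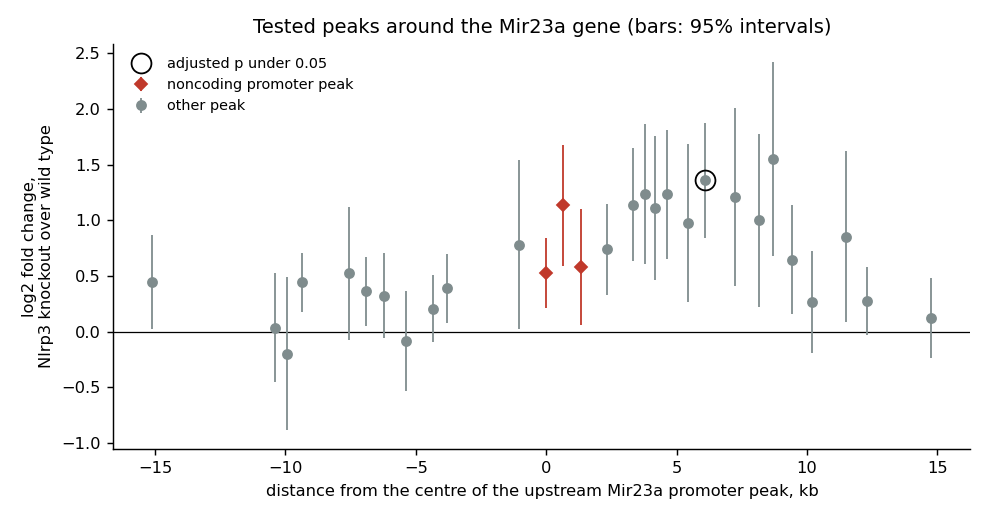
Log2 fold change (Nlrp3 knockout over wild type) with 95% intervals of the 29 tested peaks around Mir23a, by distance in kb from the centre of the upstream Mir23a promoter peak. Diamonds are the 3 noncoding promoter peaks, circles other peaks, and the ringed peak has an adjusted p under 0.05. Of the 29, 27 lie above 0, as do 29378 of all 58135 tested peaks.

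Of the other members with the smallest p and a positive fold change, Gm40893 (12:98523762-98523970) had the largest. It held 8.45, 8.86, 7.03 and 10.4 CPM in the knockout, against 3.98, 3.51, 2.28 and 4.66 CPM in wild-type libraries. The genotypes did not overlap, yet the counts are low (log2 1.24, SE 0.35, edgeR adjusted p = 0.365). 5830416I19Rik had a log2 fold change of 1.04 and A830035O19Rik of 1.11, with overlapping genotypes at both. At Neat1, whose RNA is the scaffold of nuclear paraspeckles, the main peak (19:5845142-5845980) had 88.5 ± 20.6 CPM in knockout and 82.6 ± 10.1 in wild-type libraries (log2 0.11, SE 0.14). The smaller Neat1 peak upstream (19:5846322-5846523) had 9.72 ± 3.00 CPM in knockout and 5.94 ± 0.93 in wild-type libraries (log2 0.71, SE 0.31, edgeR adjusted p = 0.978). Smkr-ps (log2 0.40), 1810021B22Rik (0.56, with no overlap) and Mir6541 (0.54) complete the 10, with the 3 peaks at the Mir23a cluster. Of the 9 members with an unadjusted p under 0.05 and a positive fold change, 5 came from the knockout list only, which was made from these same libraries.

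The 10 members with the smallest p and a negative fold change were mostly genes without a known function. At 4930506C21Rik (17:8311777-8311994), whose start overlaps that of Sft2d1 on the other strand, the libraries held 8.45, 7.38, 4.39 and 3.23 CPM in the knockout, against 9.45, 9.84, 10.2 and 11.2 CPM in wild type. All knockout libraries lay below all wild-type libraries (log2 -1.06, SE 0.33, edgeR adjusted p = 0.583), at a peak that was listed from wild type only. At 2210417A02Rik (5:148741713-148742070) the values were 16.9, 5.91, 11.9 and 11.0 CPM in the knockout, against 23.9, 18.97, 21.6 and 14.9 CPM in wild type, with an overlap at knockout replicate 1 (log2 -0.78, SE 0.24, edgeR adjusted p = 0.605). The most negative was 2900041M22Rik (11:117611158-117611437), also listed from wild type only, with 7.24, 11.8, 4.39 and 1.94 CPM in the knockout against 12.4, 9.84, 12.5 and 7.45 CPM in wild type (log2 -1.16, SE 0.39, edgeR adjusted p = 0.748). Without knockout replicates 1 and 2 its log2 fold change was -1.78 and it passed in edgeR (adjusted p = 0.0259, range 0.0259 to 1 over the alternatives). The rest were 9930111H07Rik (-0.93), 4930455G09Rik (-0.65), Snhg5 (-0.50), Gm33677 (-0.98), Mir8120 (-0.55), 4930528A17Rik (-0.99) and Gm5468 (-0.79), where the numbers are log2 fold changes. Among these 7, Gm5468 was the one without overlap, at 3.88 to 6.03 CPM in knockout and 6.99 to 11.4 CPM in wild-type libraries. Gm5468, Gm33677 and 4930528A17Rik were listed from wild type only as well. Of the 19 members with an unadjusted p under 0.05 and a negative fold change, 6 came from the wild-type list only, which was made from these same libraries.

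**Figure D5:**
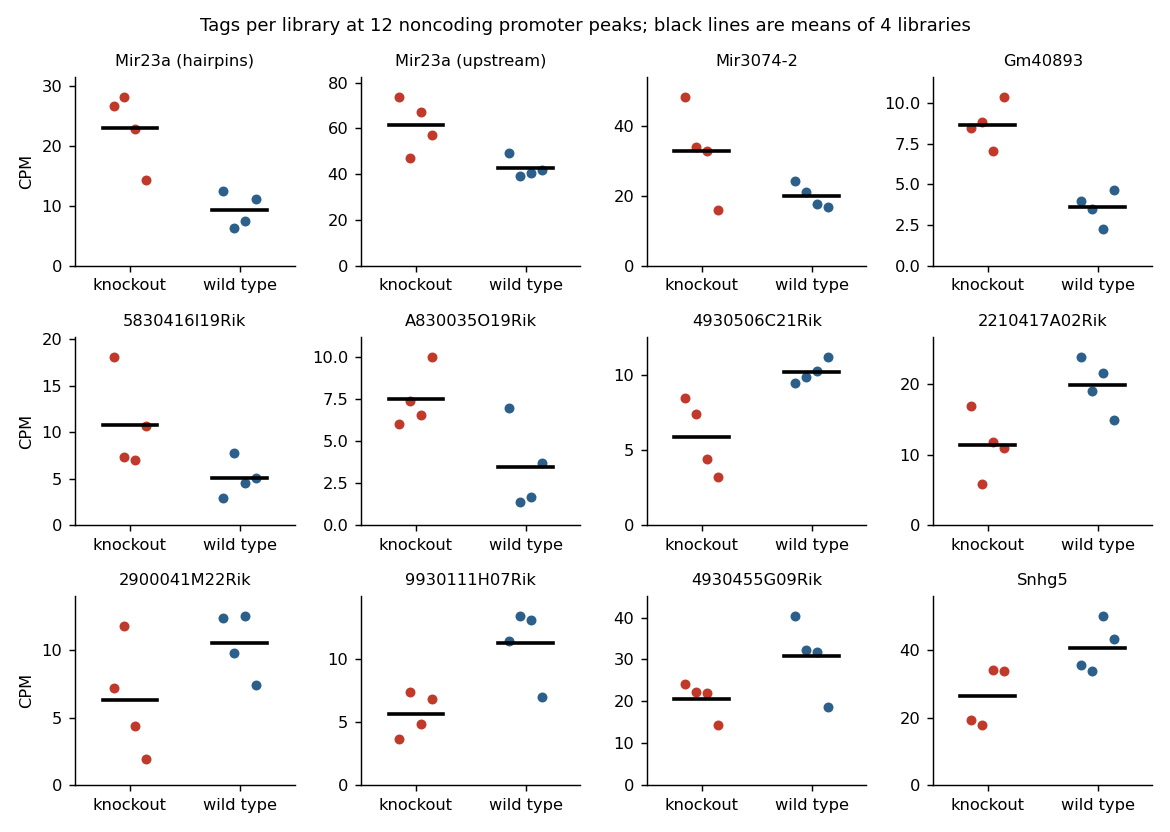
CPM of each library at 12 noncoding promoter peaks with the smallest p, Nlrp3 knockout on the left and wild type on the right of each panel. Points are libraries, lines means of 4, and axes start at 0. The genotypes separate fully at the Mir23a hairpin peak, Gm40893 and 4930506C21Rik, and overlap at the other 9.

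Host genes of small nucleolar RNAs, which carry RNAs that guide ribosomal RNA modification in their introns, had open promoters. Of 23 listed, 15 had 17 member peaks, all tested, with a median level of 60.8 CPM per kb. Their median log2 fold change was -0.036, and none passed, with 0 at an unadjusted p under 0.05 higher and 1 lower. That peak was Snhg5 (9:88522915-88523385), with 19.3, 17.7, 34.2 and 34.0 CPM in the knockout against 35.8, 33.7, 50.1 and 43.3 CPM in wild-type libraries. Knockout replicates 1 and 2, which had few tags in peaks, were the lowest. Wild-type replicates 1 and 2 were the lowest of their genotype, with its highest and its lowest share of tags in peaks (17.5% and 9.79%). Without knockout replicates 1 and 2 the log2 fold change was -0.26 in place of -0.50 (SE 0.20). With the replicate number as a block it was -0.59. The part of the share of tags in peaks in this difference was not tested. Gas5, a host gene induced on growth arrest and divergent from Zbtb37, had 28.2 ± 7.36 CPM in knockout and 30.1 ± 6.69 in wild-type libraries at its main peak (log2 -0.10, SE 0.20, 95% interval -0.51 to 0.31). Dancr had 42.2 ± 1.19 CPM in knockout and 42.7 ± 5.58 in wild-type libraries (log2 -0.02, interval -0.33 to 0.30). Snhg8 was the most open host gene, at 157.8 CPM per kb, followed by Dancr at 141.1 and Snhg6 at 126.7. Zfas1, antisense to Znfx1, had 109.8 and Snhg9, which shares its promoter region with the ribosomal protein gene Rps2, had 124.2.

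Nuclear and chromatin-associated long noncoding RNAs had 13 peaks at 10 of 24 listed genes, with a median level of 45.5 CPM per kb and a median log2 fold change of 0.055. Of the 11 tested none passed, with 1 at an unadjusted p under 0.05 higher (the smaller Neat1 peak) and 0 lower. Malat1, an abundant RNA of nuclear speckles, had a wide peak upstream of its start (19:5803031-5803877) with 42.5 ± 6.11 CPM in knockout and 44.2 ± 6.13 in wild-type libraries (log2 -0.12, interval -0.45 to 0.21). Kcnq1ot1, an imprinted antisense RNA that silences neighbouring genes, had 45.3 ± 5.33 CPM in knockout and 44.5 ± 2.79 in wild-type libraries (log2 0.05, interval -0.25 to 0.36). Dleu2, the host of miR-15a and miR-16-1, was the most open of the list at 145.3 CPM per kb. Tug1, divergent from Morc2a, had 85.5, and Lncpint 45.5. The peaks of Peg13 and 2900097C17Rik held too few tags to be tested.

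Noncoding genes of myeloid cells and inflammation had 15 peaks at 11 of 28 listed genes, with a median level of 30.7 CPM per kb and a median log2 fold change of -0.096. Of the 14 tested none passed, and the 2 at an unadjusted p under 0.05 were both of Mir23a. Ptgs2os2, the mouse lincRNA-Cox2, a regulator of inflammatory genes in macrophages, had 31.4, 20.7, 20.2 and 22.6 CPM in the knockout, against 31.8, 30.2, 18.8 and 20.96 CPM in wild-type libraries. The genotypes overlapped throughout (log2 -0.13, interval -0.57 to 0.30). Gm14005, also called Morrbid, which in mice represses the death gene Bcl2l11 in short-lived myeloid cells, had 15.3 ± 3.66 CPM in knockout and 17.8 ± 3.36 in wild-type libraries at the peak over its start (log2 -0.24, interval -0.70 to 0.22). Its second peak, listed from wild type only, had 5.38 ± 1.57 CPM in knockout and 7.71 ± 1.41 in wild-type libraries (log2 -0.67, interval -1.38 to 0.03). Mir142, a microRNA gene of blood cells, had 18.9 ± 2.37 CPM in knockout and 20.6 ± 2.55 in wild-type libraries at the peak 81 bp from its hairpin (log2 -0.10, interval -0.51 to 0.31). Mir146, a microRNA gene that NF-kB induces and that damps its signalling, had 11.7 ± 1.84 CPM in knockout and 10.2 ± 1.59 in wild-type libraries (log2 0.12, interval -0.41 to 0.65). Mir22hg was the most open of the list, with 117 ± 12.4 CPM in knockout and 124 ± 17.4 in wild-type libraries at its main peak (log2 -0.09, interval -0.34 to 0.16).

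Housekeeping small RNA genes had 5 peaks at 5 of 21 listed genes, with a median level of 99.3 CPM per kb. None of the 4 tested passed, and none had an unadjusted p under 0.05. Rmrp had 79.4 ± 14.6 CPM in knockout and 77.3 ± 4.48 in wild-type libraries (log2 0.03, interval -0.24 to 0.30). Rpph1, the RNA of RNase P, which trims transfer RNAs, had 72.5 ± 9.22 CPM in knockout and 72.7 ± 10.2 in wild-type libraries (log2 0.00, interval -0.28 to 0.28). Vaultrc5, a vault RNA gene, had 32.8 ± 11.2 CPM in knockout and 41.4 ± 7.06 in wild-type libraries (log2 -0.25, interval -0.65 to 0.14). Rnu12, an RNA of the minor spliceosome, had 15.4 ± 5.62 CPM in knockout and 13.8 ± 2.05 in wild-type libraries, and the peak of Rnu11, another, held too few tags to be tested.

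Of the 34 peaks of pseudogene type 30 were tested. The median level was 44.0 CPM per kb over the 34, and the median log2 fold change -0.11 over the 30. None had an unadjusted p under 0.05. After H2-K2, the most open were Bambi-ps1, with 53.9 ± 3.95 CPM in knockout and 48.9 ± 2.98 in wild-type libraries, and 4632415L05Rik, with 41.4 ± 10.7 in knockout and 46.2 ± 7.37 in wild-type libraries. The 8 snoRNA peaks had a median level of 33.8 CPM per kb. The most open were Snord17 (36.2 ± 5.82 CPM in knockout, 37.8 ± 3.76 in wild type) and Snord104 (49.8 ± 8.67 in knockout, 49.3 ± 4.25 in wild type), and of the 7 tested none had an unadjusted p under 0.05.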

How the data were processed

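ATAC-seq libraries of 4 Nlrp3 knockout and 4 wild-type samples were analysed. Per the submitters' processing notes, reads were aligned to mm10 with Bowtie2, and HOMER and DESeq2 were used, with no versions given. Per the file headers, the deposited table holds raw tag counts per peak, made by the authors with HOMER at no more than 3 tags per position, over a merged list of knockout and wild-type peaks called by reproducibility between replicates. Each library held 11325865 to 15521580 tags, and errors of single counts cover counting only. Libraries were 51 cycles, single end, on fragments of 165 to 250 bp, per the labels' protocols.

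All peaks with enough tags (edgeR's filterByExpr, minimum count 10) were fitted in 1 model with edgeR 4.0.16 (TMM, quasi-likelihood F test, R 4.3.3, limma 3.58.1), with Benjamini-Hochberg adjustment over all 58135 tested peaks and a threshold of 0.05. DESeq2 1.42.0 was an alternative. Tables and plots were made with Python 3.11.15, pandas 2.3.3, scipy 1.17.1 and matplotlib 3.10.9. The fit was tested on simulated data. Peaks were named for the 10 smallest p in each direction, the 10 highest levels, the 3 highest levels of each gene type, and gene lists of snoRNA hosts, nuclear long noncoding RNAs, myeloid genes and housekeeping small RNAs. The members and the lists were chosen with earlier results of these data known. Gene starts, biotypes and sequences came from RefSeq (GRCm38.p6). Starts, biotypes and promoter windows were matched by Entrez gene ID, and the hairpins of microRNA genes by symbol. Alternatives covered scaling, filters, peak lists, the replicate number and libraries left out.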

Additional observations from a re-analysis of the deposited data

Results flagged for a closer look

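In 10 of 164 groups of 4 libraries examined, 1 library lay far from the other 3, where chance flags about 1 in 20 groups. Values are CPM. At Gm20753, knockout replicate 4 had 77.3, with 60.2 to 60.5 in the other knockout libraries. At Kcnq1ot1, knockout replicate 1 had 37.4, with 47.2 to 48.8 in the others. Knockout replicate 2, the library with the lowest share of tags in peaks (4.96%), stood low at Snord104 (36.9, with 53.1 to 55.8 in the others), at Mir6541 (5.91, with 16.2 to 18.1) and at Vaultrc5 (16.2, with 36.2 to 39.8). The part of that share in these values was not tested.

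Among wild-type libraries, replicate 1 stood low at Snhg17 (5.47, with 11.2 to 12.1 in the others) and at 2900097C17Rik (0.994, with 2.79 to 2.85), and high at Gm5468 (11.4, with 6.99 to 7.73). Replicate 2 stood high at Ptgs2os (11.9, with 7.40 to 7.95), and replicate 4 at Mir6541 (14.4, with 8.43 to 9.11).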

How the results depend on the processing

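No noncoding promoter peak passed in edgeR with TMM or RLE scaling, scaling by all tags, no filter or peaks of both lists, nor in DESeq2. The count was 1 with robust moderation and 1 without knockout libraries 1 and 2 together, and 0 to 1 when each library was left out in turn (1 without knockout replicate 4). Members at an unadjusted p under 0.05 numbered 1 with scaling by all tags, 51 without knockout libraries 1 and 2 together, and 19 to 53 with libraries left out, against 28. Over all peaks, 19, 246 and 65 to 123 passed in these settings, against 99. The member that passed was the Mir23a hairpin peak, except without knockout libraries 1 and 2, where it was 2900041M22Rik. Each of these was listed from 1 genotype only, so the setting with peaks of both lists left them out and could not call them. With the replicate number as a block (replicate block), 1 peak passed, again Mir23a, 140 of all peaks in place of 99, and 49 members had an unadjusted p under 0.05 in place of 28. The labels state no pairing of libraries with the same number, and whether they were paired cannot be told from the values. After subtraction of the genotype means, libraries with the same number correlated at -0.0077, 0.095, -0.0075 and 0.146 for replicates 1 to 4. Libraries with different numbers correlated at -0.124 to 0.087.

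The median log2 fold change was 0.063 with all tags as library size, and -0.082 to -0.016 with libraries left out. The difference in share of tags was 0.011 percentage points with all tags as denominator, and -0.097 to -0.034 with libraries left out. The level ratio to protein-coding promoters was 0.881 within 100 bp of the start, 0.785 for the 576 peaks of noncoding transcripts (an alternative chosen after seeing the data), and 0.815 to 0.833 with libraries left out. The divergent share was 30.4% with starts at most 500 bp apart and 34.9% at most 2000 bp. The causes of these changes were not tested. The median tested member held only 13 and 11 tags in knockout libraries 1 and 2, which limits precision.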
